A study of Mus musculus with 2 samples.

Results

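The genes described here are the replication-dependent histone genes of the mouse, chosen by name: every symbol in the expression tables that begins with Hist1h, Hist2h, Hist3h or Hist4h. There were 64 such genes among 20211 symbols: 5 encode the linker histone H1, 16 H2A, 18 H2B, 12 H3 and 13 H4. On the mouse genome build NCBIM37 (mm9), 51 of them lie in the Hist1 cluster on chromosome 13 between 21807632 and 24026720, 9 in the Hist2 cluster on chromosome 3 between 96023839 and 96082924, 3 in the Hist3 cluster on chromosome 11 and 1, Hist4h4, on chromosome 6. GENCODE M1 gives 59 of the 64 genes a single exon and no intron.

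RNA was sequenced from primary perivascular cells (PCs) of the aorta of C57BL/6 mice, grown in DMEM with serum. The study compared 1 library of wild type (WT) PCs with 1 library of PCs from Kai1 knockout (Kai1-/-) mice, which lack Kai1 (Cd82). KAI1 is a membrane protein of the tetraspanin family. Levels are RPKM, read numbers scaled by transcript length and by the mapped reads of the library, so that they are per length and may be compared between genes. There are no replicates, so no difference below has a replicate check, no p-value is given, and genotype cannot be told apart from animal, culture or library preparation.

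The targeted gene Cd82 was listed at 12.8 RPKM in WT and 2.62 RPKM in Kai1-/- PCs (log2 ratio -2.25). The depth, estimated from steps in the low RPKM values, was near 29500000 reads for WT and 26700000 for Kai1-/- PCs. Of 13 mural cell markers, 7 averaged 1 RPKM or more, led by Acta2 (smooth muscle actin) at 3823 and 2580. All 7 were lower in Kai1-/- PCs, with a median log2 ratio of -1.04. Of these, 4 were more than 2-fold lower, against 7.81% of all symbols that averaged 1 RPKM or more. Among the 4 were Tagln at 633 and 307 and Mcam at 4.90 and 0.264. Over all 13 markers the summed RPKM was 4646 in WT and 2978 in Kai1-/- PCs. Of 3 markers of capillary pericytes, Rgs5 and Abcc9 were under 0.3 in both libraries, and Kcnj8 was listed at 0 in WT and at 0.791 in Kai1-/- PCs. Of 12 endothelial markers, Egfl7 alone reached a mean of 1, and the list summed to 3.58 and 7.39, with Pecam1, Cdh5 and Kdr listed at 0 in Kai1-/- PCs. Macrophage markers summed to 27.5 and 6.72 over 13 genes. The 3 that passed the mean of 1 were all more than 2-fold lower in Kai1-/- PCs: Csf1r at 11.7 and 2.66, Tyrobp at 10.4 and 2.37 and Lyz2 at 3.44 and 1.09, while Emr1 and C1qa were listed at 0 in both libraries. Fibroblast markers summed to 3512 and 1974 over 10 genes. The part of these differences in the histone results was not tested.

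Nucleosomes hold DNA around an octamer of H2A, H2B, H3 and H4, and H1 binds the DNA between them. Cells make most of this protein in S phase, when new DNA has to be packed, from the clustered genes, while variant histones such as H3.3 and H2A.Z come from single genes elsewhere that are used throughout the cycle. The mRNAs of the clustered genes are the ones known to end in a conserved stem-loop in place of a poly(A) tail: the stem-loop binding protein SLBP holds this hairpin, the U7 snRNP directs the cut behind it, and the mRNA is broken down when DNA synthesis stops. Some of the clustered genes are known to give polyadenylated transcripts as well, in cells that have left the cycle. Whether the sequenced RNA was selected on poly(A) tails is not given in the sources used here.

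The hairpin was searched for on NCBIM37 as a perfect 6-base arm beginning with GG, a 4-base loop beginning with TT and the complementary arm, within 150 bases after the annotated stop codon. It was present in 57 of the 62 genes with an annotated stop codon, or 91.9%, against 12 of 21738 other protein-coding genes, or 0.0552%. The 6 forms found differed by type. One form was found at 35 H1, H2A, H2B and H3 genes, and another at 8 genes, all of them H4. The following examples are shown because they belong to genes with the largest differences in either direction, with the 16 bases of stem and loop in capitals, the genome positions of those 16 bases, and 5 bases on either side.

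Hist1h4d (chr13:23673819-23673834, plus strand): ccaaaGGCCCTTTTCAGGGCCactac
Hist1h4f (chr13:23643160-23643175, minus strand): tcaaaGGCCCTTTTCAGGGCCaccca
Hist1h4h (chr13:23623327-23623342, plus strand): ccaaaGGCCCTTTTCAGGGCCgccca
Hist1h2af (chr13:23626228-23626243, plus strand): ccaaaGGCTCTTTTCAGAGCCaccac
Hist2h2aa2 (chr3:96043707-96043722, minus strand): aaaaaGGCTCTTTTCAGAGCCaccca
Hist1h3c (chr13:23836916-23836931, minus strand): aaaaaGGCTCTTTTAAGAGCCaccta

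Hist1h4d and Hist1h4f, the H4 genes with the highest ratio of Kai1-/- to WT, had the same 16 bases as Hist1h4h, the H4 gene with the lowest. Hist1h2af and Hist2h2aa2, at opposite ends of the H2A genes, also shared theirs, so that the form of the hairpin did not separate genes that were higher from genes that were lower. The 5 genes searched without a match to this pattern were Hist1h2an, Hist1h3g, Hist1h4a, Hist2h2bb and Hist2h2be. No match says only that these letters did not stand in this window.

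Of the 64 genes, 53 averaged 1 RPKM or more across the libraries and passed this filter, and 11 did not. The 53 included 3 genes, Hist1h1b, Hist1h3f and Hist2h2bb, that were under 1 in WT PCs. Most histone cluster genes stood higher in Kai1-/- PCs. On the scale of log2((RPKM + 0.1) of Kai1-/- over (RPKM + 0.1) of WT), which understates differences of low genes, 34 of the 53 were more than 2-fold higher and 2, Hist1h4h and Hist2h3c1, more than 2-fold lower in Kai1-/- PCs. Of the 10068 symbols that passed the same filter, 7.98% were more than 2-fold higher and 7.81% more than 2-fold lower. The median log2 ratio was 1.58 for the 53 genes and 0.08 for all 10068 symbols. In RNA from whole cultures, more cells that make histone mRNA and more of it in each such cell cannot be told apart. The ratio was above 0 in 47 of the 53 genes, against 55.1% of all symbols. With no filter on RPKM, 36 of all 64 genes were more than 2-fold higher and 4 lower, against 5.96% and 9.29% of 20211 symbols.

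These counts depended on how the libraries were scaled. The median log2 ratio of all kept symbols moved to -0.19 when the upper quartiles were made equal and to -0.41 when both libraries were scaled to Gapdh, which was itself listed at an RPKM of 4238 in WT and 5997 in Kai1-/- PCs. Under the Gapdh scaling 28 of the 53 histone genes were more than 2-fold higher and 5 lower, against 2.76% and 18.4% of all symbols, and their median log2 ratio was 1.08.

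**Figure D1:**
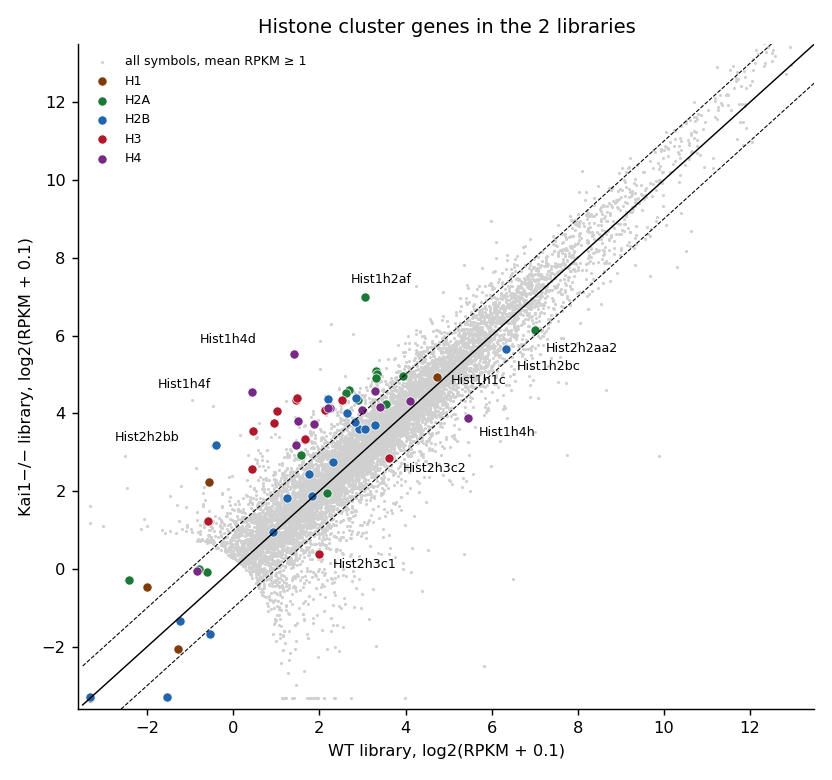
Level of each histone cluster gene in the WT library (x axis) and the Kai1-/- library (y axis), both as log2(RPKM + 0.1), coloured by histone type, over the 10068 symbols that averaged 1 RPKM or more in grey. The solid line marks equal levels and the dashed lines a 2-fold difference: 34 of the 53 genes that passed this filter lie above the upper line, while Hist1h4h and Hist2h3c1 lie below the lower one.

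Because 1 library stands for each genotype, the precision of a ratio could be judged only from read numbers. For the 49 of the 53 genes with a single annotated exon, the RPKM values corresponded to a median of 50 reads in WT (7 to 1500) and 114 in Kai1-/- PCs (15 to 1028). The exact 95% binomial interval of the fold, which covers counting error only and rests on estimated reads, lay above 1 in 39 of them, held 1 in 6 and lay below 1 in 4, against 44.6% above and 35.0% below for the 1976 symbols past the filter that have a single annotated transcript of over 800 bases. The interval lay wholly above 2 in 27 histone genes and wholly below 0.5 in 1, against 5.62% and 8.45%. Transcripts of over 800 bases are longer than most histone genes, so at equal RPKM they have more reads and narrower intervals. The shares are therefore not fully comparable. The 4 genes whose interval lay below 1 were Hist2h2aa2, Hist2h3c1, Hist2h3c2 and Hist1h4h.

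The 5 clustered H1 genes listed differed little as a sum, and that sum was carried by a single gene. Hist1h1c (H1.2) had an RPKM of 26.3 in WT and 30.6 in Kai1-/- PCs and made up 96.2% and 85.0% of the H1 sum. Its counting interval ran from 1.01 to 1.34-fold. Hist1h1b (H1.5), which shares no 50-base stretch with another histone gene, had 0.576 and 4.63, an 8.04-fold higher level with an interval from 4.15 to 17.5. Hist1h1d (H1.3) stayed under the filter at 0.148 and 0.622, Hist1h1a was at 0.310 and 0.137, and Hist1h1t, the H1 of spermatocytes, was listed at 0 in both libraries. The summed RPKM of H1 was 27.4 in WT and 36.0 in Kai1-/- PCs. The log2 ratio of 0.39 turned to -0.11 under scaling to Gapdh. This sum does not cover all linker histones. Hist1h1e, a further H1 gene in GENCODE M1, is not among the symbols listed. H1f0 and H1fx, counted here with the variant histones, had 24.9 and 49.1, and 19.3 and 54.3.

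H2A genes differed by cluster. All 10 Hist1 H2A genes that passed the filter were more than 2-fold higher in Kai1-/- PCs, or 7 of 10 under scaling to Gapdh, with a median log2 ratio of 1.71 and a summed RPKM, over all 12, of 86.5 in WT and 363 in Kai1-/- PCs. Hist1h2af was far above the others, at 8.20 in WT and 126.8 in Kai1-/- PCs, a 15.5-fold higher level with a counting interval from 12.1 to 19.7. It accounted for 3.55% of the H2A sum in WT and 27.7% in Kai1-/- PCs. The other 9 ranged from 2.04-fold higher for Hist1h2ag, at 15.4 and 31.3, to 3.78-fold higher for Hist1h2an, at 6.07 and 23.0.

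The 3 H2A genes outside Hist1 that passed the filter were not more than 2-fold higher. Hist2h2aa2 had the highest level of any histone cluster gene in WT PCs, 128.4, and stood at 70.4 in Kai1-/- PCs, a fold of 0.548 with an interval from 0.501 to 0.598. It fell from 55.5% to 15.4% of the H2A sum. Hist2h2ac had 11.5 and 18.9, a fold of 1.64 with an interval from 1.25 to 2.16. Hist3h2a, the H2A of the Hist3 cluster, had 4.41 and 3.77, with an interval from 0.518 to 1.41-fold that held 1. Hist2h2aa2 is a member of a pair of identical copies, and its symbol stood on 2 rows with nearly equal values, averaged here. Whether a row holds the reads of both copies or only a share of them is not given in the sources used here. The log2 ratio of the H2A sums was 0.98 with repeated rows averaged and 0.59 with repeated rows summed. The other 3 H2A genes did not pass the filter: Hist1h2aa, Hist1h2ac and Hist2h2ab, with a mean RPKM of 0.403, 0.705 and 0.685.

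H2B genes showed the smallest differences of the core histones. Of the 14 that passed the filter, 4 were more than 2-fold higher, 0 more than 2-fold lower and 10 in between, and their median log2 ratio was 0.62, or 0.13 under scaling to Gapdh. Hist1h2bc, the H2B gene with the highest level, had an RPKM of 80.0 in WT and 50.6 in Kai1-/- PCs, and its share of the H2B sum fell from 54.2% to 26.8%. Hist1h2bk had 7.09 and 20.9, and Hist1h2bn 4.49 and 20.4, folds of 2.94 and 4.55. Hist2h2bb stood apart from the rest, with 0.658 in WT and 9.03 in Kai1-/- PCs, a 13.7-fold higher level. Its GENCODE M1 transcript, with 2 exons and 1511 bases against a RefSeq span of 493, shares no 50-base stretch with another histone gene. Hist2h2bb is the only H2B gene of the Hist2 cluster that passed the filter, the other, Hist2h2be, being at 0.326 and 0.294. The testis gene Hist1h2ba differed least among genes with an interval, at 3.44 and 3.58. Summed H2B was 147.7 in WT and 188.9 in Kai1-/- PCs. The log2 ratio of 0.36 turned to -0.15 under scaling to Gapdh.

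H3 had the largest ratio of sums of the 5 types, from 41.1 in WT to 146.3 in Kai1-/- PCs. The log2 ratio was 1.83, or 1.33 under scaling to Gapdh. All 9 Hist1 H3 genes were more than 2-fold higher, under each of the scalings tried, with a median log2 ratio of 2.80. Hist1h3e was at 2.68 and 20.9, Hist1h3d at 2.63 and 20.4, and Hist1h3h, with the highest ratio of the type, at 1.28 and 11.6. Their folds were 7.80, 7.73 and 9.05. Hist1h3c was at 1.91 and 16.5, a fold of 8.62, and the lowest ratio among the Hist1 H3 genes was that of Hist1h3i at 3.05 and 10.0, a 3.29-fold higher level.

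The 3 H3 genes of the Hist2 cluster went different ways. Hist2h3b had 5.64 in WT and 20.3 in Kai1-/- PCs, a fold of 3.59. Hist2h3c1 had 3.86 and 1.21, a fold of 0.313 with an interval from 0.164 to 0.564, and Hist2h3c2, which GENCODE M1 calls a pseudogene, 12.1 and 7.12, a fold of 0.587. Hist2h3b shares 79.7% of its 50-base stretches with Hist2h3c2, so the division of reads among these 3 genes is uncertain, and summed over them H3 was at 21.6 in WT and 28.6 in Kai1-/- PCs. The coding H3 genes make 2 proteins that differ by a single residue, S97C counted from the first methionine. The 7 genes with S summed to 21.6 and 98.5 and the 4 with C to 7.41 and 40.7, folds of 4.56 and 5.50. Both sums leave out Hist2h3c2, which was 29.5% of the H3 sum in WT and 4.86% in Kai1-/- PCs. It shares stretches with Hist2h3b and Hist2h3c1, which are counted with S, so the fold of 4.56 is uncertain.

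H4 genes had both the largest rises and the largest fall of a highly expressed histone gene. Of the 12 that passed the filter, 9 were more than 2-fold higher, or 7 under scaling to Gapdh, and 1 more than 2-fold lower. Hist1h4d was at 2.54 in WT and 46.3 in Kai1-/- PCs, an 18.2-fold higher level with an interval from 10.9 to 33.3. Hist1h4f was at 1.25 and 23.4, an 18.8-fold higher level that rests on about 7 reads in WT and has an interval from 8.46 to 45.8. Hist1h4h went the other way, from 43.4 in WT to 14.6 in Kai1-/- PCs, 2.97-fold lower, with an interval of the fold from 0.265 to 0.428. It made up 39.2% of the H4 sum in WT and 6.24% in Kai1-/- PCs, while Hist1h4d went from 2.30% to 19.7%. Hist1h4i had 17.1 and 19.9 with an interval that held 1, from 0.885 to 1.55. Hist2h4 of the Hist2 cluster had 9.67 and 23.8, a fold of 2.46, and Hist4h4 was under the filter at 0.458 and 0.861.

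The 13 H4 genes encode 1 protein of 103 residues through 12 different coding sequences, Hist1h4m and Hist1h4n being identical. Summed over all of them H4 was at 110.7 in WT and 234.5 in Kai1-/- PCs (log2 ratio 1.08).

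**Figure D2:**
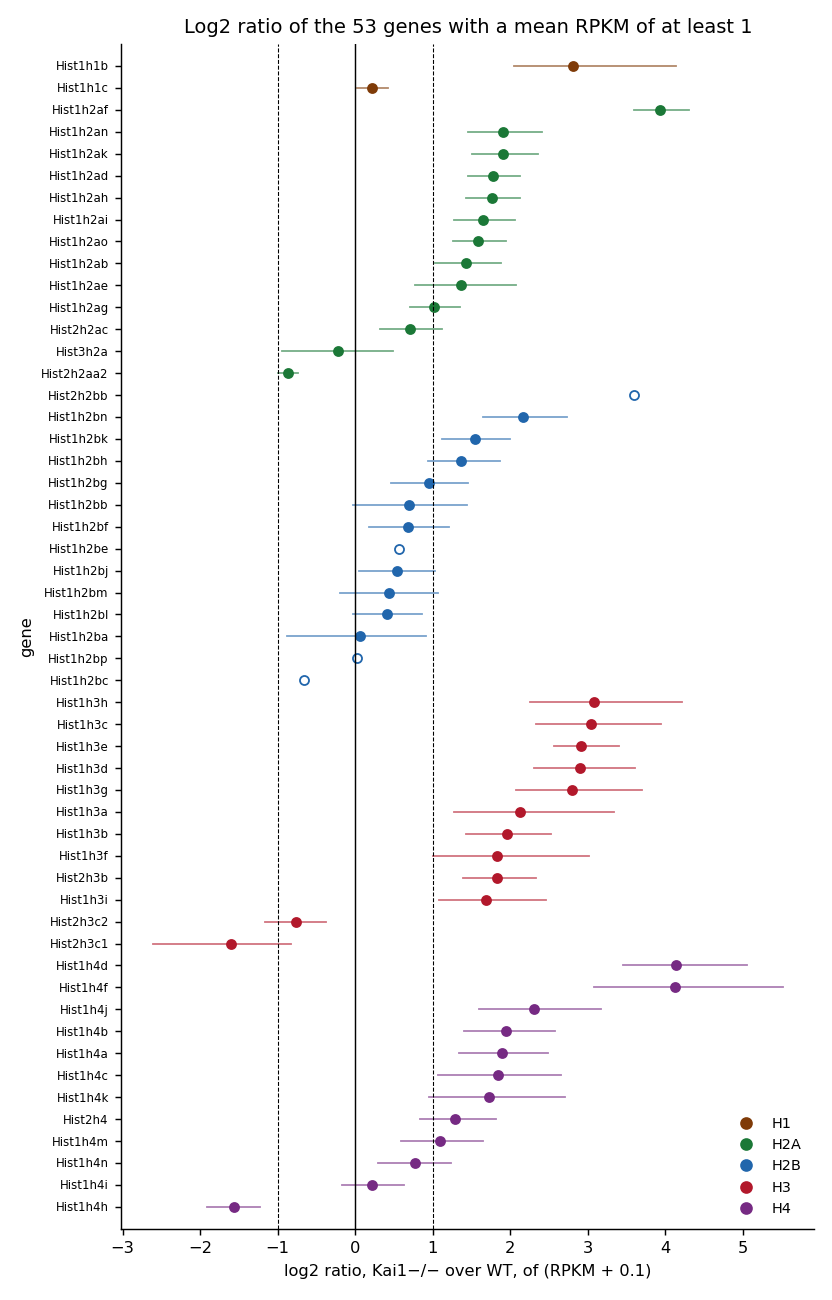
Log2 ratio of Kai1-/- over WT, on (RPKM + 0.1), for each of the 53 histone cluster genes that averaged 1 RPKM or more (points), coloured and ordered by histone type. Lines are exact 95% binomial intervals from estimated reads (counting error only), open points are genes with several annotated exons, for which no reads were estimated, and dashed lines mark a 2-fold difference: Hist1h4d and Hist1h4f of H4 reach highest, followed by Hist1h2af and Hist2h2bb, most H2B genes lie within the lines, and Hist1h4h and Hist2h3c1 lie to the left of them.

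The summed RPKM of all 64 genes was 558 in WT and 1063 in Kai1-/- PCs, 1.90-fold higher, a log2 ratio of 0.93, or 0.43 under scaling to Gapdh. The sum over all symbols was 1.40-fold higher. A few genes weighed against the rest in these sums. The 5 genes with the highest RPKM in WT PCs, Hist2h2aa2, Hist1h2bc, Hist1h4h, Hist1h1c and Hist1h4i, summed to 295 in WT and 186.0 in Kai1-/- PCs, and made up 52.9% and 17.5% of the histone sum. The other 59 genes summed to 263 and 877. This grouping was made after the values were seen and uses the WT value that is also part of each ratio, so it is a description.

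**Figure D3:**
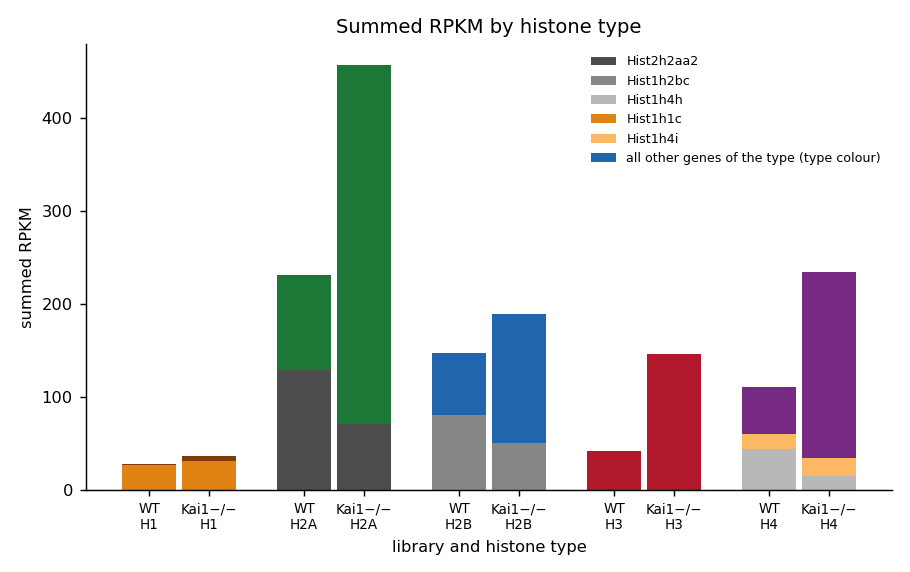
Summed RPKM of the histone cluster genes of each type in the WT and Kai1-/- libraries (bars from 0, no error bars, 1 library each), with the 5 genes highest in WT in grey and orange and all other genes of the type in the type's colour. H3 goes from 41.1 to 146.3, and the shares of Hist2h2aa2, Hist1h2bc and Hist1h4h are smaller in the Kai1-/- library.

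By position, the summed level of the Hist1 cluster was higher in Kai1-/- PCs, and the direction of the Hist2 sum depended on a single gene. In Hist1, 31 of 45 genes that passed the filter were more than 2-fold higher and 1 lower, and the sum over its 51 genes went from 380 to 906, a log2 ratio of 1.25. In Hist2, 3 of 7 were more than 2-fold higher and 1 lower, and the sum over its 9 genes went from 172.6 to 151.8, a log2 ratio of -0.19 that was -0.69 under scaling to Gapdh. Without Hist2h2aa2, an alternative chosen after seeing the data, the other 8 Hist2 genes went from 44.3 to 81.5, 1.84-fold higher. The median log2 ratio of the 7 Hist2 genes past the filter was 0.71, with 4 of them above 0, and that of the 45 Hist1 genes 1.69. The Hist1 genes lie in 2 stretches separated by over 500000 bases. The median log2 ratio was 1.62 over 20 genes of the first stretch and 1.83 over 25 genes of the second, and the second held both extremes, Hist1h4h and Hist1h4d.

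Neighbours could differ strongly. Hist1h4h lies at one end of the second stretch, and the next gene in order is Hist1h2af, with log2 ratios of -1.56 and 3.93.

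**Figure D4:**
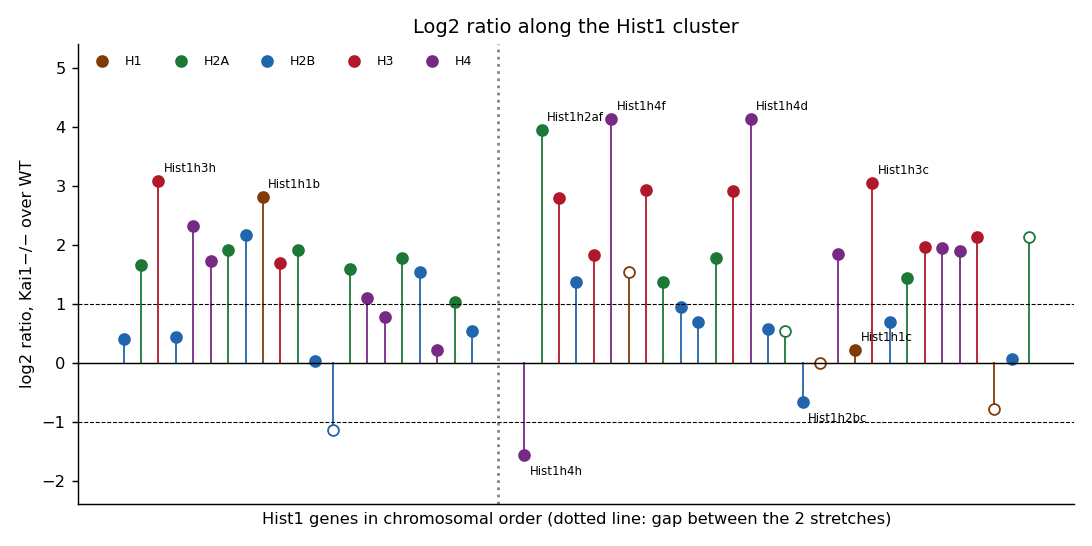
Log2 ratio of Kai1-/- over WT, on (RPKM + 0.1), for the 51 genes of the Hist1 cluster in chromosomal order (x axis, rank and not distance), coloured by histone type, with open points for genes that averaged under 1 RPKM. Ratios above the upper dashed line, a 2-fold difference, occur along both stretches, and Hist1h4h (-1.56) stands directly beside Hist1h2af (3.93).

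Many H2A and H2B genes are arranged head to head, with start sites under 500 bases apart and their promoters in the DNA between them. There were 12 such pairs, with both genes past the filter in 7. In 6 of these 7 the H2B gene had the lower log2 ratio of the pair, and the median absolute difference within a pair was 0.48. Hist1h2an had a ratio of 1.90 and its partner Hist1h2bp 0.03. Hist1h2bn (2.16), the exception, stood above Hist1h2ak (1.90). In a pair with 1 gene past the filter, Hist1h2bc, at 80.0 and 50.6, faced Hist1h2ac, at 0.557 and 0.853. Hist1h2ac rests on about 5 and 7 reads, with an interval of the fold from 0.423 to 6.18, so the levels of the pair differed and no direction could be given for Hist1h2ac.

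The promoters of 58 of the 64 genes, from 250 bases before to 50 after the start in RefSeq on GRCm38.p6, were searched on both strands. CCAAT, the letters bound by NF-Y, stood in 84.5% of them and in 41.1% of 27025 promoters of all genes. By type it stood in all H1, H2A, H2B and H3 promoters found and in 3 of 12 H4 promoters. TATAAA stood in 56.9%, against 15.7% of all. The octamer ATTTGCAT, the letters bound by the POU factor Oct-1 (Pou2f1), stood in 14 promoters, or 24.1%, against 1.97% of all: 7 H2A and 7 H2B promoters, and none of the 27 of H1, H3 and H4. These are 11 distinct sites, since 3 of them were found in the promoters of both genes of a head-to-head pair and count for both. The octamers of Hist1h2ac, Hist2h2ac and Hist3h2a were counted for the H2A gene only. They stood 130, 200 and 119 bases before its start, with the partner's start 251, 241 and 173 bases away. The stretches below show the octamer in capitals on the strand of the H2B gene. They are for Hist2h2bb, far higher in Kai1-/- PCs, and for the 3 sites counted for both genes of a pair. Among them is that of Hist1h2ba, which was close to equal.

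Hist2h2bb (chr3:96269643-96269668, GRCm38.p6, plus strand): tgaaacctcATTTGCATacaagctct
Hist1h2ba and Hist1h2aa (chr13:23934304-23934329, GRCm38.p6, minus strand): attccccttATTTGCATgcacccagc
Hist1h2bk and Hist1h2ah (chr13:22035782-22035807, GRCm38.p6, plus strand): tttcactttATTTGCATacgaagttc
Hist1h2bg and Hist1h2ae (chr13:23571332-23571357, GRCm38.p6, plus strand): gagtcccttATTTGCATagaacctct

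The median log2 ratio was 0.69 for the 7 H2B genes that passed the filter with the octamer, from 0.06 for Hist1h2ba to 3.59 for Hist2h2bb. It was 0.54 for the 7 in which none was recorded, from -0.66 for Hist1h2bc to 2.16 for Hist1h2bn. The ranges of these groups overlapped widely. Only 15 of the 18 H2B promoters were searched, so the second group can hold genes that were not searched. Hist1h2bc, with the octamer of Hist1h2ac in the DNA before it, may belong to the first group, so the 2 medians are uncertain. Pou2f1 itself had an RPKM of 0.273 in WT and 0.327 in Kai1-/- PCs.

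Near-identical copies limit what a single value means. Of all 50-base stretches of a gene's longest GENCODE M1 transcript, a share was also present in another histone gene. The median share was 48.5% for H2A, 46.3% for H2B, 51.8% for H3, 43.0% for H4 and 0% for H1 genes. How the authors' counting treated reads that match several places is not given in the sources used here. The 23 genes past the filter with at least 50% shared stretches had a median log2 ratio of 1.58, with 17 more than 2-fold higher, and the 25 with 10 to 50% had 1.65, with 14 higher and 2 lower. The 5 with under 10% had 1.29, with 3 higher: Hist2h2bb, Hist1h1b and Hist2h4, next to Hist1h1c and Hist3h2a. A long annotated transcript lowers the share. Those of Hist1h1c, Hist2h4, Hist3h2a and Hist2h2bb have 1560, 1608, 1990 and 1511 bases, against RefSeq spans of 725, 384, 508 and 493. These groups therefore need not order the genes by how many of their reads match other copies.

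Genes that serve the histones did not all stand with them. Of 12 genes past the filter of the processing machinery for histone mRNA, 1 was more than 2-fold higher, Cstf2, at 3.82 in WT and 8.53 in Kai1-/- PCs, and 0 lower, with a median log2 ratio of 0.25 that turned negative, to -0.03 and -0.25, under the upper quartile and Gapdh scalings. Slbp, which binds the stem-loop, had 8.76 and 11.1. Lsm10 and Lsm11, proteins of the U7 snRNP, had 37.1 and 34.8, and 3.13 and 3.12. Npat, the coactivator of histone gene transcription in S phase, had 0.784 and 0.769. Among 8 genes past the filter that act on histone gene transcription, 2 were more than 2-fold higher, and the list's median was 0.47. These 2, Cdk2 at 2.69 and 7.10 and Ccne2 at 0.719 and 2.22, encode the kinase that phosphorylates NPAT and one of its cyclins. Ccne1, the other cyclin E gene of the list, had a higher level than Ccne2 and was not more than 2-fold higher, at 47.7 and 55.4. The list holds Gapdh itself, whose ratio a scaling to Gapdh sets to 0. Without Gapdh, a choice made after seeing the data, the median of the other 7 was 0.44, or -0.04 under that scaling.

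The chaperones that carry new histones to DNA and the variant histones stood higher more often. Of 15 chaperone and import genes, 7 were more than 2-fold higher and 0 lower, with a median log2 ratio of 0.99, or 0.49 under scaling to Gapdh. Asf1b, a chaperone of H3 and H4, had 5.34 and 24.7, Nasp, which holds the soluble H3 and H4 pool, 13.2 and 42.3, and Hat1, which acetylates new H4, 5.60 and 18.5. Of 11 variant histone genes past the filter, 6 were more than 2-fold higher, or 2 under scaling to Gapdh, and 0 lower, with a median of 1.15. Cenpa, the H3 of centromeres, had 24.0 and 82.6, and H2afz (H2A.Z) 82.4 and 247. The H3.3 genes H3f3a and H3f3b, not more than 2-fold higher, had 73.2 and 84.9, and 51.7 and 94.4.

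Genes of DNA replication and of mitosis also stood higher in the Kai1-/- library. Of 43 S-phase genes, 29 were more than 2-fold higher and 0 lower, with a median log2 ratio of 1.20, and of 24 mitosis genes, 19 were higher and 0 lower, with a median of 1.32. Under scaling to Gapdh these were 13 and 7 genes, with medians of 0.70 and 0.82. Pcna, the replication clamp, had 38.2 and 77.1, and Cdk1 23.7 and 85.5. The S-phase list overlaps the lists above. Mcm2 is also counted with the chaperone and import genes, Slbp with the processing genes, and Ccne1 and Ccne2 with the transcription genes.

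The histone cluster genes were spread more widely than these lists. Their log2 ratios ran from -1.60 for Hist2h3c1 to 4.13 for Hist1h4d, and the S-phase genes from -0.23 for Rrm2 to 2.26 for Rpa3. The part of counting error and of reads shared between copies in this spread was not tested.

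**Figure D5:**
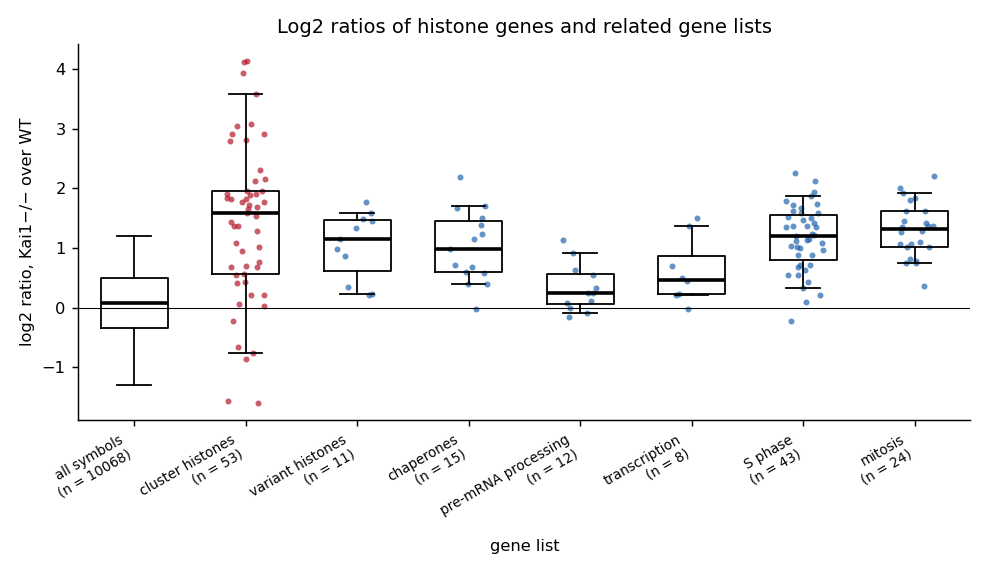
Log2 ratio of Kai1-/- over WT, on (RPKM + 0.1), of genes that averaged 1 RPKM or more: all symbols, the histone cluster genes (red points) and 6 related lists (blue points). Boxes show the quartiles and the median, whiskers the 5th and 95th percentiles, and the histone cluster genes have the highest median, 1.58, and the longest distance between the whiskers of these lists.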

How the data were processed

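RNA-seq of 1 WT and 1 Kai1-/- library of PCs was used. Per the submitters' processing notes, TopHat2 2.0.9 and Bowtie placed the reads on mm9, and the authors deposited 1 RPKM value per RefSeq gene and library, and library type, read length and depth are not given in the sources used here. Rows without a symbol (38 of 20462) were left out, and repeated symbols (3 of the 64 genes) averaged. Log2 ratios used a pseudocount of 0.1 RPKM and were taken over symbols that averaged 1 RPKM or more. The 2-fold call has no test. The genes and gene lists were chosen with earlier results of these data known. Both values are given for the 3 highest genes of each histone type, the 5 largest ratios in each direction and every gene outside Hist1 that passed the filter; other genes come from the lists. Depth was estimated by fitting low values of 5776 symbols with 1 annotated transcript over 800 bases, less a 200-base fragment, to whole reads: 78.4% of 454 WT values and 75.9% of 253 Kai1-/- values were at most 0.15 away from a whole number. Reads of histone genes used the RefSeq span. Intervals are 95% Clopper-Pearson intervals. The 2-fold call and the depth fit were run on simulated data with counting noise only and the same lengths and 200-base deduction. That run could test neither these assumptions nor variation between cultures or libraries. Stem-loops and shared 50-base stretches used NCBIM37 with GENCODE M1, and all 64 symbols matched RefSeq synonyms. Python 3.11.15, numpy 2.4.6, pandas 2.3.3, scipy 1.17.1 and matplotlib 3.10.9 were used. A list of 15 RNAs without a poly(A) tail is not analysed here.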

Additional observations from a re-analysis of the deposited data

How the results depend on the processing

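The count of histone genes more than 2-fold higher (34) ranged from 28 to 36. The count lower (2) was 4 without a filter, 1 with a mean RPKM of at least 5, 4 with equal upper quartiles and 5 when scaled to Gapdh. The median log2 ratio (1.58) was 1.43 with a pseudocount of 1 RPKM, 1.37 without a filter, 1.65 with a mean of at least 5, 1.50 with the median of all symbols set to 0, 1.31 with equal upper quartiles and 1.08 when scaled to Gapdh. The log2 ratio of the summed RPKM (0.93) was 0.85, 0.65 and 0.43 under those 3 scalings. It was 0.74 with repeated symbols summed, where Hist2h2aa2, Hist1h2ao and Hist1h2bq count for both of their rows. Scaling to Gapdh reversed the sums of H1 (-0.11) and H2B (-0.15). The cause of these shifts between scalings was not tested. No paired analysis was possible because WT and Kai1-/- PCs were sequenced as 1 library each, and for the same reason no library could be left out. Depth limits genes with few reads in WT, such as Hist1h4f.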
